A study of Mus musculus with 24 samples.

Results

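H3K4me3 was compared between the chromatin of Camk2a-positive neurons and that of the tissue as a whole, by tandem ChIP-Seq (tChIP-Seq) in 2 mouse lines. The comparison used 6 of the 24 samples in the series, which are 3 libraries of the Camk2a H2B-FLAG line and 3 of the Rosa H2B-FLAG line, and every one of the 17993 regions that these libraries share. Regions were assigned to genes where they overlapped an annotated transcription start site (TSS), and 13285 of 22238 protein-coding genes of the mm9 annotation had such a region. Both lines were on the C57BL/6 strain, the labels give cerebral cortex as the tissue, and both lines carried the tagged histone H2B-FLAG under the CAG promoter at the Rosa26 locus. In the Rosa line (genotype Rosa CAG-H2B-FLAG), a Vasa-Cre parent had removed the floxed stop, so that H2B-FLAG was made in all cells throughout life, and the age and sex of the animals were not given in the sources used here. In the Camk2a line (labelled Rosa26 CAG-floxed-pA-H2B-FLAG with CaMKCreERT2), male mice received 1 mg of tamoxifen a day for 5 days at 8 weeks of age and were sampled about a month later. Their CreERT2 was driven by Camk2a regulatory sequence, so recombination was limited to cells in which that sequence is active. Each lysate pooled 2 animals. The study placed the share of labelled brain cells at about its technical limit, which came from mixed cultured cells. In mixtures with fewer tagged cells, chromatin recovered from untagged cells was comparable to that from tagged cells. Chromatin carried over from unlabelled cells was not measured here.

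H3K4me3 marks the nucleosomes around the start sites of active genes. In tChIP-Seq, chromatin that carries the tagged histone is first precipitated with anti-FLAG antibody, and the eluted chromatin is precipitated again with anti-H3K4me3 antibody. Camk2a encodes the alpha subunit of calcium/calmodulin-dependent kinase II and in the forebrain is made mainly by excitatory pyramidal neurons, whereas the cortex also contains inhibitory neurons, astrocytes, oligodendrocytes, microglia and cells of the blood vessels and meninges.

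The Camk2a libraries held between 2709729 and 3049130 reads in regions, and the Rosa libraries between 1457261 and 1828371. Levels are given as CPM, the reads in a region as counts per 1e6 reads in all regions after TMM scaling, and differences as log2 fold changes of Camk2a relative to Rosa. A region or gene is called higher or lower where the quasi-likelihood test of edgeR gave an adjusted p under 0.01. By this test 3062 regions (17.0%) were higher and 2620 (14.6%) were lower in the Camk2a line. Of these, 3022 and 2563 also had 3 libraries of one line all above the 3 of the other. Such separation largely follows from the call, and its share over all 17993 regions was not counted. The lowered regions reached further, since 404 fell by at least 2 on the log2 scale and 29 rose by as much. In single ChIP-Seq with anti-H3K4me3 alone, which was made from the same 2 lines without FLAG selection, 386 of the 17993 regions (2.15%) passed the same test in either direction. Of those, 167 were higher and 219 were lower in the Camk2a line. Of the 3062 regions higher in tChIP-Seq, 41 were also higher in single ChIP-Seq, and 16 were lower there. Of the 2620 lower regions, 33 were also lower in single ChIP-Seq, which is near the share of lower regions there among all 17993, and 35 were higher there. With scaling by library totals alone the median of all regions moved to -0.07, and the split became 2570 higher and 3315 lower regions. Fewer cells of a type and less signal per cell cannot be told apart in these bulk libraries. Among protein-coding genes with a region at a TSS, 2295 (17.3%) were higher and 1901 (14.3%) were lower, with a median log2 fold change of -0.01, and the gene groups are read against these shares.

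Promoters of genes from the main classes are shown to make the compared sites visible. Each is the 300 bases from 250 before to 50 after the TSS with the most annotated transcripts in the region, read 5′ to 3′ along the gene from mm9. Capitals mark matches on either strand to TGACGTCA (the cAMP response element of CREB-family factors), CAGATG (an E-box form bound by neuronal bHLH factors), CCGGAAGT (the ETS motif), TATAAA (the TATA box) or GGGCGG (the GC box of Sp and Klf factors). Neurod2 stands for neuronal genes that rose, Cck for the neuropeptides, Erg and Olig2 for vascular and glial genes that fell, and Psmd12, a proteasome subunit, for the genes with little difference. They were chosen after their values had been seen.
Neurod2, chr11:98190913-98191212, minus strand: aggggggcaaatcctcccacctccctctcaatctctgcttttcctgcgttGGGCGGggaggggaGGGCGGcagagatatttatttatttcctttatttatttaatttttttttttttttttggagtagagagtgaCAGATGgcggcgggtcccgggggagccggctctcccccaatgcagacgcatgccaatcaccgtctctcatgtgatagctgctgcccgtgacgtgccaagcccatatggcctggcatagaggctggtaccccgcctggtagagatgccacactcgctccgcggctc
Cck, chr9:121404758-121405057, minus strand: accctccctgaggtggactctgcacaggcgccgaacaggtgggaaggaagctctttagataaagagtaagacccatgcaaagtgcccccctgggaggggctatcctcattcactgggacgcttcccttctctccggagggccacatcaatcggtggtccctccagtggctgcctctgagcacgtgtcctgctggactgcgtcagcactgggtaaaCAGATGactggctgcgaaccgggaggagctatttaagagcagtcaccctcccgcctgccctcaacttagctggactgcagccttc
Erg, chr16:95680861-95681160, minus strand: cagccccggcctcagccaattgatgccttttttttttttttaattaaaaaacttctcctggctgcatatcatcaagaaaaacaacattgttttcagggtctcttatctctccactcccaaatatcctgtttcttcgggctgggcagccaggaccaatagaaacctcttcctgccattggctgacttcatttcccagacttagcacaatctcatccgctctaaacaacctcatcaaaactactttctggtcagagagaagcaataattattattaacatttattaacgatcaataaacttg
Olig2, chr16:91225545-91225844, plus strand: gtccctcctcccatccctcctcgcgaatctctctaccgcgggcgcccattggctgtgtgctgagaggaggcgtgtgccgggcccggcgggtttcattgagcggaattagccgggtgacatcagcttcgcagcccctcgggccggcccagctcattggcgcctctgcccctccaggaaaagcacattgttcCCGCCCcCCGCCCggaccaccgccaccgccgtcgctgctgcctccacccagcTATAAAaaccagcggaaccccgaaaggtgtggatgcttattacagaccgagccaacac
Psmd12, chr11:107340548-107340847, plus strand: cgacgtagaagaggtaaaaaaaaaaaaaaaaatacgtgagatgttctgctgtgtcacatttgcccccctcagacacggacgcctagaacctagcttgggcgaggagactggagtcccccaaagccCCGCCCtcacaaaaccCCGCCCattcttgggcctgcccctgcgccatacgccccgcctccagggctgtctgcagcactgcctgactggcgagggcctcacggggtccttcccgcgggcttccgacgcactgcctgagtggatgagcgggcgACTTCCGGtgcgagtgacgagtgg
The Erg window held none of the 5 motifs, and the Cck window held CAGATG 35 bases before the TSS. Over all 13285 promoters of this length, TGACGTCA was found in 3.52%, CAGATG in 10.7%, CCGGAAGT in 7.78%, TATAAA in 5.94% and GGGCGG in 67.2%. The ETS motif was in 44 of 2295 promoters of higher genes (1.92%), in 72 of 1901 promoters of lower genes (3.79%) and in 917 of the 9089 promoters that were not called (10.1%). CAGATG was in 13.0% of the promoters of higher genes and 11.0% of those of lower genes, and the cAMP response element was in 2.96% and 2.79%. A match is a description of the letters and does not show that a factor is bound.

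Genes of excitatory cortical neurons were mostly higher in the Camk2a line. Of 24 listed, 23 had a region at a TSS, of which 17 rose and 1 fell, with a median log2 fold change of 0.84 against -0.01 for all genes. The neuronal bHLH factor Neurod1 (chr2:79293646-79297198) had 93.1, 93.9 and 87.2 CPM in the Camk2a libraries and 36.7, 34.1 and 27.4 CPM in the Rosa libraries (1.47 ± 0.11 (SE), adjusted p = 1.32e-19). Neurod2, a related factor of maturing cortical neurons, had 177, 178 and 194 CPM against 74.5, 68.8 and 68.2 CPM (1.37 ± 0.079 (SE), adjusted p = 2.92e-26). In both genes every Camk2a library was above every Rosa library. The Neurod1 region also overlapped a TSS of Cerkl, so its rise cannot be assigned to Neurod1 alone. Emx1, a homeobox factor of the dorsal forebrain, followed with 233, 217 and 252 CPM against 99.6, 99.8 and 88.3 CPM (1.28 ± 0.071 (SE), adjusted p = 3.34e-27), and the vesicular glutamate transporter gene Slc17a7 had the largest log2 fold change of the list, 1.65.

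The factors that distinguish cortical layers did not move together. Bcl11b and Fezf2, factors of deep-layer projection neurons, rose with log2 fold changes of 1.01 and 0.92. The upper-layer genes Cux1 and Cux2, the middle-layer gene Rorb and the deep-layer genes Foxp2 and Tle4 were not called, with log2 fold changes of -0.10, 0.14, -0.16, -0.13 and -0.17. Otx1, a homeobox gene of deep-layer neurons and their progenitors, fell (chr11:21899630-21904085). It had 63.2, 66.2 and 60.4 CPM in the Camk2a libraries and 99.6, 118 and 91.7 CPM in the Rosa libraries (-0.71 ± 0.092 (SE), adjusted p = 4.78e-10), with no overlap between the lines.

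Genes of inhibitory neurons fell or were not called. Of 24 listed, 16 had a region, of which 9 fell and 0 rose, with a median of -0.69. Gad1, an enzyme that makes GABA (chr2:70399966-70402801), had 12.1, 12.9 and 14.3 CPM against 26.6, 28 and 25.4 CPM in the Rosa libraries (-1.03 ± 0.18 (SE), adjusted p = 2.19e-06). The interneuron homeobox factor gene Dlx2 had 15.1, 13.3 and 15.5 CPM against 40.5, 29.8 and 37.5 CPM (-1.30 ± 0.17 (SE), adjusted p = 3.76e-10). Both genes were lower in every Camk2a library than in any Rosa library. Gad2, the other enzyme for GABA, did not pass the test (-0.55, adjusted p = 0.0198). Lhx6, the interneuron factor of the medial ganglionic eminence, and Dlx1, Dlx5 and Dlx6 also fell, with log2 fold changes from -1.20 to -0.56, as did Erbb4, a neuregulin receptor of interneurons (-0.40). The genes Pvalb, Reln, Tac1 and Adarb2, which mark particular interneuron classes, were not called and had values of -0.09, 0.26, 0.32 and 0.45.

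Astrocyte genes were lower, with 13 of 16 members falling, 1 rising and a median of -1.0. The water channel gene Aqp4 had 4.03, 2.59 and 3.02 CPM in the Camk2a libraries and 19.7, 23.7 and 21.4 CPM in the Rosa libraries (-2.71 ± 0.27 (SE), adjusted p = 1.49e-14). Gja1, which encodes the gap junction protein connexin 43, had 19.1, 21.8 and 18.9 CPM against 93.2, 96.8 and 104 CPM (-2.29 ± 0.12 (SE), adjusted p = 7.88e-29). The groups lay far apart for both genes. Slc1a2, the main glial glutamate transporter, was the member that rose, from 134, 116 and 125 CPM in the Rosa libraries to 163, 167 and 161 CPM in the Camk2a libraries (0.38 ± 0.070 (SE), adjusted p = 3.32e-06), while the other glial glutamate transporter gene, Slc1a3, fell by 1.60 on the log2 scale. Clu and S100b were not called, at 0.05 and -0.46.

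Oligodendrocyte genes fell in 12 of 17 cases and rose in 1, with a median of -1.16. Olig2, the bHLH factor of the lineage whose promoter is printed above, had 14.4, 11.1 and 15.1 CPM in the Camk2a libraries and 78.8, 66.3 and 83 CPM in the Rosa libraries (-2.48 ± 0.14 (SE), adjusted p = 1.83e-26), and Mag, a myelin protein gene, had 5.38, 5.92 and 5.66 CPM against 30.9, 27.4 and 18.1 CPM (-2.19 ± 0.23 (SE), adjusted p = 2.15e-13). Neither gene overlapped between the lines. The member that rose was Mbp, whose encoded protein is a main component of myelin, and the gene had 2 regions that moved in opposite directions. The upstream region (chr18:82643953-82646548), at the starts of the long transcripts, had 112, 125 and 116 CPM against 50.05, 49.9 and 55.5 CPM (1.18 ± 0.094 (SE), adjusted p = 7.66e-19). The downstream region (chr18:82723949-82730263), which overlapped 1 of the 16 annotated starts of the gene, had 16.5, 21.8 and 16.2 CPM against 42.6, 41.4 and 55.5 CPM (-1.34 ± 0.15 (SE), adjusted p = 4.8e-12). The long transcripts, which include the Golli forms, are known from neurons as well as from glia. In single ChIP-Seq 3 of the 17 genes were lower and 0 higher, against 219 and 167 of all 17993 regions. Olig2 was among the lower ones there (-0.24, adjusted p = 0.00932).

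Endothelial genes formed the group with the lowest median, -2.05, and 19 of its 20 members fell. Erg, an ETS factor of endothelial cells (chr16:95675921-95680945), had 4.37, 8.88 and 7.93 CPM against 47.4, 48.1 and 44.8 CPM (-2.74 ± 0.19 (SE), adjusted p = 3.4e-22). Ly6a, a surface antigen of brain endothelium, had 2.69, 2.22 and 3.77 CPM against 18.1, 26.2 and 28.1 CPM (-3.02 ± 0.28 (SE), adjusted p = 3.56e-16). Ly6a differed in single ChIP-Seq in the same direction (-0.58, adjusted p = 0.00308). The member that did not fall was Ocln, a tight junction gene, at 0.25. When a minimum of 10 counts in every library was required, 11 members fell and the median of those left was -1.02, because the filter removed genes whose counts were low in the Camk2a libraries.

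Genes of the remaining non-neuronal cell types fell where they were called. Pericyte and smooth muscle genes had a region for 4 of 16 listed genes, of which 3 fell, and meningeal and perivascular fibroblast genes for 9 of 16, of which 8 fell, with medians of -1.76 and -1.86. Pdgfrb, the receptor that marks pericytes, had 14.4, 10.4 and 14.3 CPM against 84.7, 73 and 93.7 CPM (-2.67 ± 0.14 (SE), adjusted p = 1.73e-28), and the forkhead gene Foxc2 of meningeal cells had 5.04, 4.81 and 7.55 CPM against 40.5, 42 and 39.5 CPM (-2.81 ± 0.20 (SE), adjusted p = 2.11e-21). Both lay in every Camk2a library below every Rosa library. Of the choroid plexus and ependymal genes 2 of 5 fell, namely Msx1 and Foxj1 (-2.19 and -0.63). Foxj1 overlapped between the lines and its call was lost without Camk2a replicate 1, Rosa replicate 1 or Rosa replicate 2, with adjusted p of 0.0497, 0.0194 and 0.0664 in edgeR. Microglial genes were poorly covered, with a region for 5 of 22 listed genes, and 2 of these fell (median -0.57). With regions up to 1000 bp from a TSS counted as well, 5 fell and the median was -1.34. Of the regions at a TSS, the lowered ones were Cd40 and the factor Runx1 (9.07, 8.51 and 12.5 CPM against 29.3, 15.8 and 16.7 CPM, -1.08 ± 0.22 (SE), adjusted p = 3.32e-05), and neither call held in every fit of edgeR. Runx1 had an adjusted p of 0.0296 without Rosa replicate 1, and Cd40 had 0.0235 without Camk2a replicate 2 and 0.0294 without Rosa replicate 2. The defining microglial genes Cx3cr1, Csf1r and P2ry12 had no region that overlapped a TSS.

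**Figure D1:**
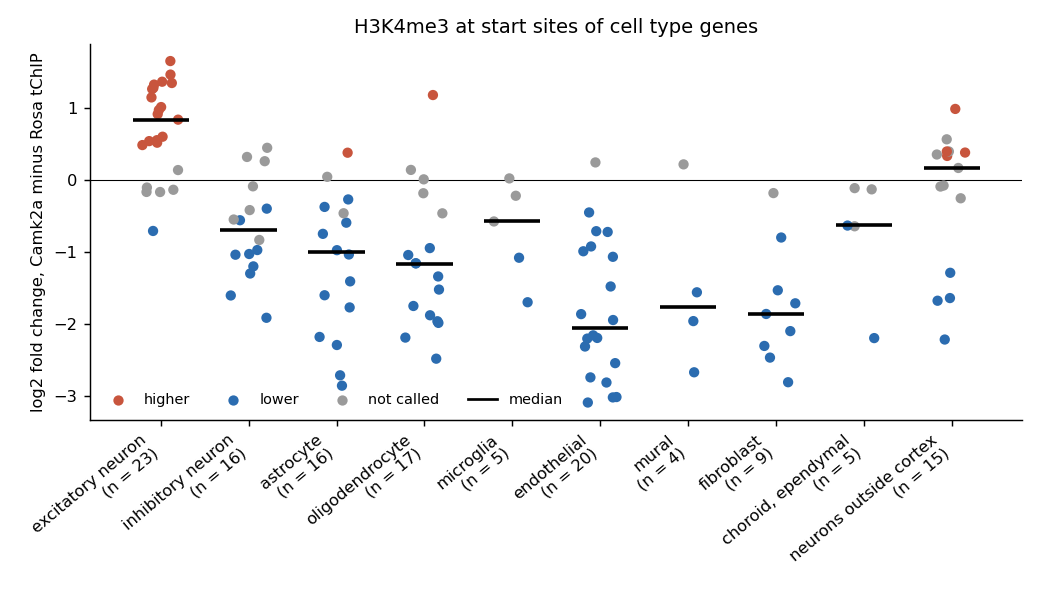
Log2 fold change of each gene with a region at a TSS, Camk2a relative to Rosa tChIP-Seq, by cell type list. Orange points were called higher, blue points lower and grey points neither, and black lines are medians, which run from 0.84 for excitatory neuron genes to -2.05 for endothelial genes.

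Levels were also summed over each list in every library. The excitatory genes summed to between 2677 and 2824 CPM in the Camk2a libraries and between 1702 and 1813 CPM in the Rosa libraries. For inhibitory genes the sums lay between 296 and 319 CPM in the Camk2a libraries and between 449.6 and 468 CPM in the Rosa libraries, and for endothelial genes between 480.1 and 506 CPM in the Camk2a libraries and between 1014 and 1043 CPM in the Rosa libraries. The lines did not overlap in any of these 3 sums, whereas the microglial sums overlapped, between 78.6 and 93.2 CPM in the Camk2a libraries and between 89.7 and 118 CPM in the Rosa libraries. In the Camk2a libraries the mean sum was 155% of that of the Rosa libraries for excitatory genes, 67.1% for inhibitory, 60.9% for astrocyte, 70.4% for oligodendrocyte, 47.8% for endothelial, 32.9% for mural and 30.3% for fibroblast genes. Genes of neurons outside the cortex were mixed, with 4 of 15 higher and 4 lower, or 1 higher and 4 lower under the Wald test of DESeq2. Zic1, a factor of cerebellar and midline cells, fell (21.2, 15.9 and 15.1 CPM against 85.2, 77.9 and 81 CPM, -2.21 ± 0.13 (SE), adjusted p = 8.78e-26), as did the striatal adenosine receptor gene Adora2a (-1.68), whereas Ppp1r1b, which encodes the striatal phosphoprotein DARPP-32, rose (0.40). The rise of Ppp1r1b rested on Rosa replicate 2, with an adjusted p of 0.0378 without it. With 3 libraries a line, the smallest two-sided p of an exact permutation test on a summed level is 0.1, so the sums are given as a description.

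**Figure D2:**
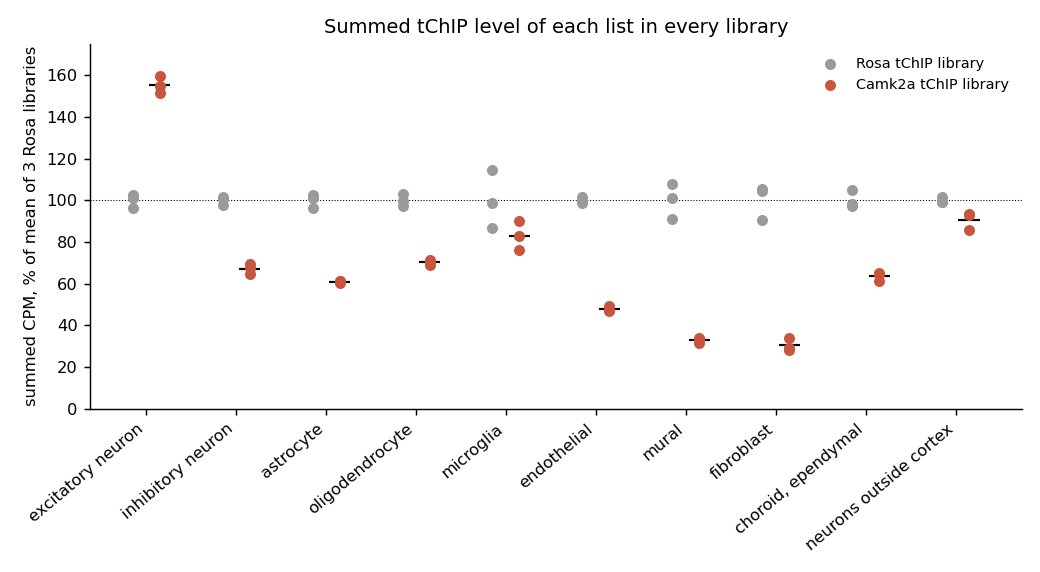
Summed CPM of the regions of each cell type list in every library, as a percentage of the mean of the 3 Rosa libraries. Grey points are Rosa libraries, orange points Camk2a libraries and short lines Camk2a means, which lie at 155% for excitatory neuron genes and 30.3% for fibroblast genes.

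Receptors for the fast transmitters rose as families. Glutamate receptor subunits were higher for 20 of 24 genes and lower for 2, with a median of 0.85. Grin2a, an NMDA receptor subunit of mature forebrain (chr16:9989628-9996386), had 260.1, 281 and 256 CPM in the Camk2a libraries and 102, 80.3 and 81 CPM in the Rosa libraries (1.58 ± 0.071 (SE), adjusted p = 2.42e-32). Grin1, the subunit shared by all NMDA receptors, had 98.1, 90.2 and 99.3 CPM against 37.8, 42.6 and 31.4 CPM (1.35 ± 0.11 (SE), adjusted p = 9.39e-19). The lines were fully apart for both. Within the same NMDA receptor family Grin2b rose (0.85) and Grin2c and Grin2d fell. Grin2c, known from cerebellar granule cells and astrocytes, had 16.5, 14.1 and 19.6 CPM against 54.9, 48.7 and 48.2 CPM (-1.60 ± 0.15 (SE), adjusted p = 1.11e-15), and Grin2d, known from interneurons, had a log2 fold change of -0.71. GABA-A receptor subunits were higher for 11 of 14 genes and lower for 0, with a median of 0.88. Gabra5, a subunit of hippocampal and cortical pyramidal cells, had 72.9, 78.4 and 74 CPM against 26.6, 24.9 and 23.4 CPM (1.58 ± 0.12 (SE), adjusted p = 5.8e-19), and Gabra3 on chromosome X had 28.6, 32.5 and 26.1 CPM against 7.46, 10.3 and 9.37 CPM (1.69 ± 0.21 (SE), adjusted p = 5.44e-11). Genes for receiving GABA thus rose in the libraries in which Gad1, for making it, fell.

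Potassium channels were the list with the most higher genes. Of 94 potassium channel genes, 67 had a region, and 51 rose while 3 fell (median 0.78). Kcnv1, a modifier subunit of cortical neurons, had 157, 162 and 174 CPM against 56.4, 56 and 52.2 CPM (1.57 ± 0.086 (SE), adjusted p = 1.45e-27), and the background potassium channel gene Kcnk9 had 150.5, 150.5 and 146 CPM against 50.6, 52.9 and 50.2 CPM (1.54 ± 0.088 (SE), adjusted p = 1.94e-26). Neither overlapped between the lines. Those that fell were Kcnj10, the inward rectifier of astrocytes (17.1, 15.9 and 18.1 CPM against 46.3, 39 and 36.8 CPM, -1.26 ± 0.16 (SE), adjusted p = 7.18e-11), Kcnq1 (-0.95), a channel of heart and epithelia, and Kcnk5 (-0.64). Voltage-gated sodium and calcium channel genes rose in 24 of 27 cases and fell in 0 (median 0.79). Cacng2, which encodes the AMPA receptor partner stargazin, had 233, 222 and 225 CPM against 80.9, 67.5 and 81.6 CPM (1.56 ± 0.074 (SE), adjusted p = 4.89e-31).

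At the synapse both sides rose. Of 32 genes for vesicles and release 23 rose and 1 fell (median 0.82), and of 28 postsynaptic scaffold and adhesion genes 24 rose and 1 fell (median 0.65). Snap25, the plasma membrane SNARE (chr2:136539161-136545232), had 186, 195 and 194 CPM in the Camk2a libraries and 67.1, 66.9 and 62.9 CPM in the Rosa libraries (1.54 ± 0.079 (SE), adjusted p = 2.99e-29). Dlg2, the scaffold PSD-93, had 104, 109.5 and 105 CPM against 41, 37.7 and 36.8 CPM (1.45 ± 0.10 (SE), adjusted p = 2.1e-21). Each line kept to its own range for both. The members that went the other way were the release factor Unc13b (36, 32.2 and 29.4 CPM against 44.7, 50.5 and 51.5 CPM, -0.57 ± 0.13 (SE), adjusted p = 0.000139) and Homer3, the Homer of cerebellar Purkinje cells (23.9, 16.6 and 18.9 CPM against 54.3, 66.9 and 64.2 CPM, -1.62 ± 0.14 (SE), adjusted p = 2.38e-17), while Homer1 and Homer2 rose (0.42 and 0.60).

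Neuropeptides and their receptors had the highest median of the 49 lists, 0.96, with 23 of 28 genes higher and 0 lower. Adcyap1, the peptide PACAP (chr17:93598507-93603551), had 132, 124 and 150.3 CPM against 42.6, 30.4 and 33.5 CPM (1.92 ± 0.10 (SE), adjusted p = 1.78e-27). It was also called in single ChIP-Seq, with a smaller log2 fold change of 0.30 (adjusted p = 0.00762). In single ChIP-Seq 3 of the 28 genes were higher and 0 lower, against 167 and 219 of all 17993 regions. The somatostatin receptor gene Sstr3 had 69.9, 69.5 and 64.2 CPM against 20.8, 17 and 18.1 CPM (1.85 ± 0.14 (SE), adjusted p = 3.17e-20). Cck, the cholecystokinin peptide of pyramidal cells and some interneurons, had 167, 178 and 178 CPM against 52.2, 57.2 and 54.9 CPM (1.67 ± 0.084 (SE), adjusted p = 1.81e-29), and its receptor gene Cckbr rose as well (1.64). Ligand and receptor thus rose together in this pair, while Sst, Vip and Npy, the peptides of interneurons, had no region at a TSS. Monoamine and acetylcholine receptor genes were higher for 24 of 35 and lower for 2 (median 0.73). Htr1a, the serotonin receptor of cortical and raphe neurons, had 67.5, 80.6 and 69.1 CPM against 20.8, 23.1 and 22.8 CPM (1.71 ± 0.13 (SE), adjusted p = 2.46e-19). Chrnb1, the acetylcholine receptor subunit of muscle, was among the lowered members (-1.11).

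**Figure D3:**
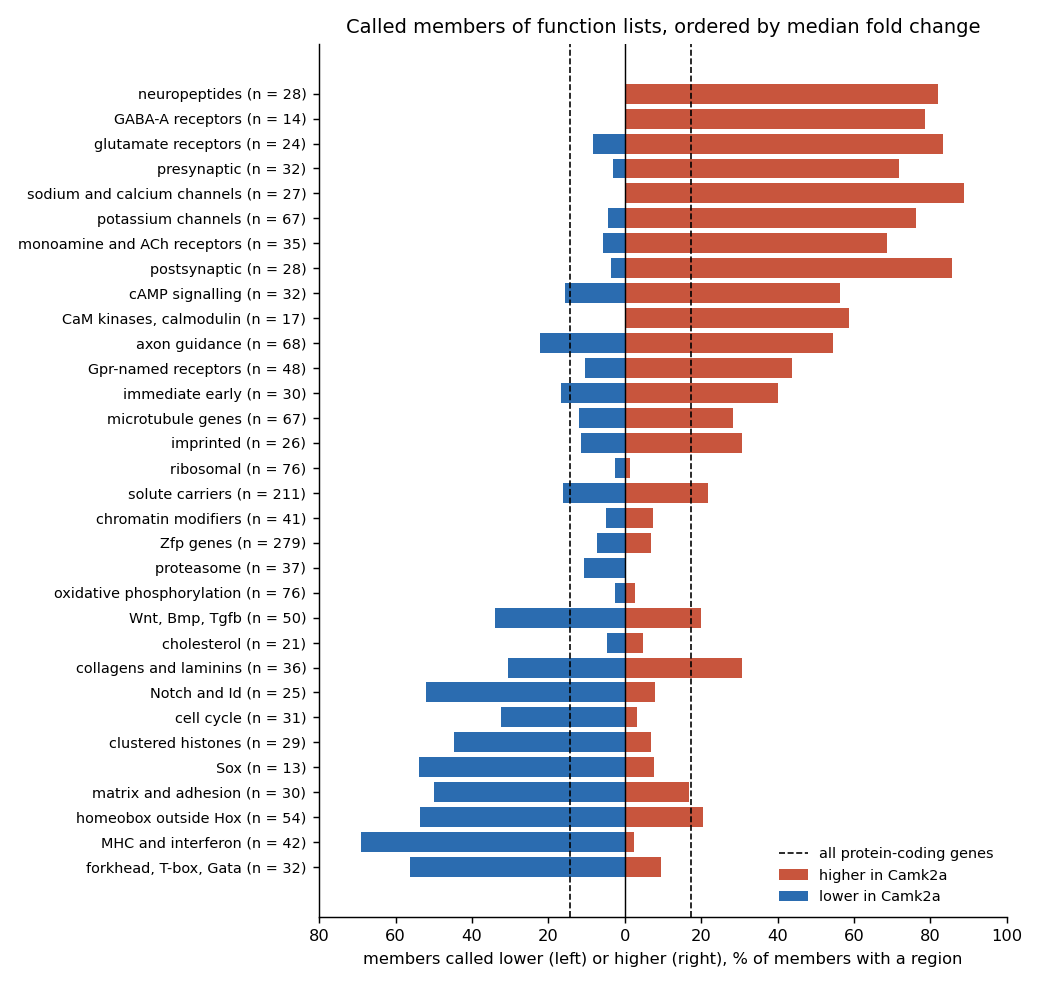
Share of members with a region that were called higher (orange, right) or lower (blue, left) in the Camk2a line, for 32 function lists ordered by median log2 fold change. Dashed lines mark the shares of all protein-coding genes, 17.3% higher and 14.3% lower, and the channel, receptor and synapse lists reach past the right-hand line.

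Signalling genes were split by family. CaM kinase, calmodulin and calcineurin genes rose in 10 of 17 cases and fell in 0 (median 0.37), with Camk1g at 1.45 and Camk2b at 1.14. Adenylate cyclase, phosphodiesterase and protein kinase A genes rose in 18 and fell in 5 of 32 cases. Pde1a, a calmodulin-dependent phosphodiesterase, had 88, 99.1 and 101 CPM against 37.8, 36.5 and 30.1 CPM (1.45 ± 0.11 (SE), adjusted p = 9.59e-20), whereas the cyclase gene Adcy4 had 5.38, 3.33 and 7.93 CPM against 26.6, 24.9 and 28.1 CPM (-2.25 ± 0.23 (SE), adjusted p = 5.84e-14). The receptors named Gpr with a number rose in 21 and fell in 5 of 48 cases, led by Gpr26 (1.70), and Gpr116, an adhesion receptor of endothelium and lung, fell (-2.33). Regulators of small GTPases rose in 28 and fell in 20 of 84 cases, and kinesin, dynein, tubulin and other microtubule genes rose in 19 and fell in 8 of 67. In the last group the neuronal forms Tubb3, Kif5a and Stmn2 rose (1.08, 1.13 and 1.15), while the tubulins Tuba1c and Tubb6 fell (-1.75 and -1.47).

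Genes induced by neuronal activity did not behave as a single class. All 30 listed immediate early genes had a region, and 12 rose, 5 fell and 13 were not called (median 0.12). Npas4, an activity-dependent bHLH factor of neurons (chr19:4984394-4990125), had 212, 188 and 198 CPM against 61.2, 60.2 and 65.6 CPM (1.68 ± 0.081 (SE), adjusted p = 9.09e-31). Nptx2, a secreted pentraxin of excitatory synapses, had 85.3, 96.2 and 83.8 CPM against 31.4, 37.7 and 33.5 CPM (1.37 ± 0.11 (SE), adjusted p = 3.89e-18). Both were higher in every Camk2a library. Bdnf, a neurotrophin gene with several promoters, had 3 regions, which rose by 1.06, 1.44 and 1.23 on the log2 scale, and Arc and Egr4 rose by 0.83 and 1.27. The Bdnf region that rose by 1.44 was also higher in single ChIP-Seq (0.32, adjusted p = 0.00711). Fos and Jun, which many cell types induce, were not called (0.02 and -0.05). Klf4 (92.7, 95 and 86.5 CPM against 136, 156 and 147 CPM, -0.67 ± 0.076 (SE), adjusted p = 3.48e-12), Btg2, Atf3, Dusp1 and Ier2 fell, with the smallest fall in Ier2 (-0.30).

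**Figure D4:**
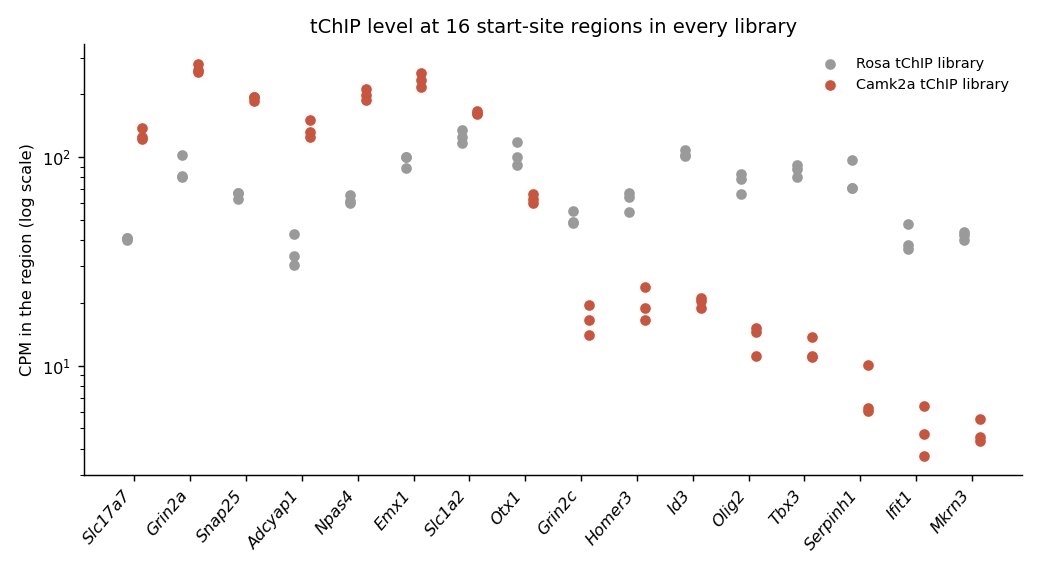
CPM at the start-site regions of 16 genes in each of the 3 Rosa (grey) and 3 Camk2a (orange) tChIP-Seq libraries, on a log axis. The groups do not overlap for any of these genes, from Slc17a7 and Grin2a on the left, which are higher in the Camk2a line, to Ifit1 and Mkrn3 on the right, which are lower.

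Developmental signalling showed changes in both directions. Axon guidance genes rose in 37 and fell in 15 of 68 cases (median 0.32). Slit1, a secreted guidance cue, had 91, 100.2 and 89.1 CPM against 26.1, 25.6 and 34.1 CPM (1.72 ± 0.12 (SE), adjusted p = 3.4e-22), and the receptor gene Epha6 rose as well (1.43). Ephb4, the receptor of veins, had 25.2, 17.8 and 17.7 CPM against 75.6, 70.0 and 76.3 CPM (-1.85 ± 0.13 (SE), adjusted p = 1.35e-21). Notch and Id genes fell in 13 and rose in 2 of 25 cases. Id3, an inhibitor of bHLH factors, had 20.5, 21.1 and 18.9 CPM against 101, 103 and 108 CPM (-2.36 ± 0.12 (SE), adjusted p = 3.19e-30), and Notch1 had 23.5, 20.7 and 30.6 CPM against 114, 125 and 124 CPM (-2.28 ± 0.11 (SE), adjusted p = 1.33e-30). The bHLH repressors of the pathway stayed near the Rosa level, with Hes1 at -0.21 and Hes5 at 0.14, neither of them called. Wnt, Bmp, Tgfb and Smad genes rose in 10 and fell in 17 of 50 cases, with Wnt10a at 1.62 and the inhibitory Smad gene Smad6 at -1.86.

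Among transcription factor families, forkhead, T-box and Gata genes fell in 18 of 32 cases and rose in 3 (median -0.71). Tbx3, a T-box factor (chr5:120120827-120125962), had 13.8, 11.1 and 10.9 CPM in the Camk2a libraries and 87.9, 80.3 and 91.7 CPM in the Rosa libraries (-2.84 ± 0.14 (SE), adjusted p = 1.98e-30). Gata3 fell by 3.22 on the log2 scale from a low level (1.34, 0.74 and 1.89 CPM against 10.7, 11.6 and 16.7 CPM). Foxp4 was the exception of size, with 132, 134 and 141 CPM against 52.2, 38.3 and 55.5 CPM (1.48 ± 0.095 (SE), adjusted p = 1.13e-23), and Foxp1 and Foxo6 also rose (0.24 and 0.33). Under the Wald test of DESeq2, 1 member of the list was higher. Homeobox genes outside the Hox clusters fell in 29 and rose in 11 of 54 cases, and of 39 Hox genes 3 had a region, of which 1 fell. Sox genes fell in 7 and rose in 1 of 13 cases, with Sox21 at -2.14 and Sox11, a factor of young neurons, at 0.36, and Klf genes fell in 4 and rose in 1 of 13. Sox2 and Sox10 had no region at a TSS and could not be read. The regions of Tbx3 and Sox21 also overlapped a TSS of Gm2301 and of Gm4675, so these falls cannot be assigned to Tbx3 and Sox21 alone.

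Antigen presentation and interferon response genes were lower as a class, 29 of 42 against 1 higher (median -0.71). Ifit1, induced by interferon in most cell types (chr19:34714568-34717059), had 4.7, 3.7 and 6.42 CPM in the Camk2a libraries and 47.9, 37.7 and 36.1 CPM in the Rosa libraries (-3.04 ± 0.21 (SE), adjusted p = 4.45e-22). Ifitm3, a membrane protein that restricts viruses, had 3.36, 1.48 and 0.755 CPM against 22.4, 18.9 and 18.7 CPM (-3.35 ± 0.32 (SE), adjusted p = 1.5e-15). Ifit1 was also lower in single ChIP-Seq (-0.58, adjusted p = 0.000935), and its groups were fully apart in tChIP-Seq. Its region also overlapped a TSS of 2010002M12Rik, so the fall cannot be assigned to Ifit1 alone. The classical class I genes moved less, with H2-K1 at -0.86 and B2m, the shared light chain, at -0.54. The immunoproteasome genes Psmb9 (54.8, 42.9 and 49.5 CPM against 85.7, 86.4 and 89 CPM, -0.82 ± 0.10 (SE), adjusted p = 6.91e-11) and Psmb8 (-0.53) fell. The member that rose was Ifitm7 (0.75), but its region also overlapped a TSS of 2900011O08Rik. The rise cannot be assigned to either gene alone.

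Genes of the extracellular matrix were mixed. Collagen and laminin chains rose in 11 and fell in 11 of 36 cases, although 5 chains fell when at least 10 counts were required in every library. Integrins, matrix proteins and proteases rose in 5 and fell in 15 of 30. Lamb2, the laminin chain of vessel basement membranes, had 3.02, 3.7 and 5.66 CPM against 35.7, 29.8 and 40.1 CPM (-3.09 ± 0.23 (SE), adjusted p = 1.44e-20). Col19a1, a collagen known from interneurons and subsets of neurons, had 83, 76.2 and 77.8 CPM against 26.6, 32.9 and 34.8 CPM (1.34 ± 0.12 (SE), adjusted p = 8.29e-17). Each of these had no overlap between the lines. Acan and Ncan, proteoglycans of the matrix around neurons, rose (0.69 and 0.64), whereas Sparc and Mmp14 fell (-2.25 and -2.66). Genes of dividing cells fell in 10 and rose in 1 of 31 cases, with Cdk1 and Mki67 at -0.92 and -0.66. Clustered histone genes fell in 13 and rose in 2 of 29 cases, but these 29 genes shared 24 regions and are near-identical copies, so their reads could be split uncertainly. Of 24 clustered protocadherin genes 5 had a region and 2 rose.

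Ribosomal, oxidative phosphorylation and proteasome genes, most of which every cell uses, stayed close to the Rosa level. Ribosomal protein genes rose in 1 and fell in 2 of 76 cases, oxidative phosphorylation genes in 2 and 2 of 76, and proteasome genes in 0 and 4 of 37, with medians of 0.04, -0.03 and -0.02. The proteasome genes that fell include the immunoproteasome genes Psmb9 and Psmb8 given above. Psmd12 had 71.6, 67.7 and 78.2 CPM in the Camk2a libraries and 76.2, 70.0 and 71.6 CPM in the Rosa libraries. These overlapped, and its log2 fold change was -0.01 ± 0.096 (SE). The ETS motif was in 15 of 76 promoters of ribosomal protein genes (19.7%), 5 of 37 of proteasome genes (13.5%) and 6 of 76 of oxidative phosphorylation genes (7.89%), against 7.78% of all. Genes of chromatin modification rose in 3 and fell in 2 of 41 cases, cholesterol synthesis genes in 1 and 1 of 21, and zinc finger genes named Zfp in 19 and 20 of 279. Ubiquitin ligase genes rose in 24 and fell in 16 of 140 cases (17.1% and 11.4%), shares near those of all genes. Glycolysis genes rose in 1 and fell in 2 of 19 cases, and the 3 that moved were Eno2, Aldoc and Hk2. Eno2, the neuronal enolase, had 108, 104 and 107 CPM against 55.4, 51.7 and 68.2 CPM (0.88 ± 0.095 (SE), adjusted p = 4.98e-13), Aldoc, the aldolase of astrocytes, had 19.5, 20.7 and 25.7 CPM against 55.4, 57.2 and 62.2 CPM (-1.41 ± 0.14 (SE), adjusted p = 4.81e-15), and Hk2 fell as well (-0.55). In single ChIP-Seq Hk2 was higher in the Camk2a line (0.38, adjusted p = 0.0075).

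Solute carriers rose in 46 and fell in 34 of 211 cases (21.8% and 16.1%), near the 17.3% and 14.3% of all protein-coding genes. Some related transporters, picked after their values were seen, parted ways. The potassium chloride cotransporter gene of neurons, Slc12a5, rose (1.47), while its relatives Slc12a4 and Slc12a7 fell (-1.96 and -2.05). The neuronal glucose transporter gene Slc2a3 rose (1.12), and Slc2a1, the glucose transporter of the blood-brain barrier, fell (-0.71). Slc2a10, of the same family, had 1.01, 1.85 and 3.4 CPM in the Camk2a libraries and 17.6, 16.4 and 15.4 CPM in the Rosa libraries (-2.98 ± 0.32 (SE), adjusted p = 6.37e-13), with no overlap.

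Of 26 imprinted genes with a region, 8 rose and 3 fell (median 0.08). Meg3, a maternally expressed noncoding RNA (chr12:110779194-110781232), had 54.4, 49.6 and 46.4 CPM against 18.1, 14.6 and 22.8 CPM (1.45 ± 0.15 (SE), adjusted p = 1.97e-13). Mkrn3, a paternally expressed gene of the Prader-Willi region (chr7:69563629-69565196), had 4.37, 5.55 and 4.53 CPM against 42.1, 43.8 and 40.1 CPM (-3.12 ± 0.20 (SE), adjusted p = 2.61e-23), with -0.27 in single ChIP-Seq (adjusted p = 0.164). Neither overlapped between the lines. Ndn and Snrpn, paternally expressed genes of the same domain as Mkrn3, were not called (0.09 and 0.07), while in single ChIP-Seq Ndn was lower (-0.45, adjusted p = 0.00568). The 2 parental alleles are not separated in these counts.

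Ranked over all protein-coding start sites outside the loci named in the study, with a mean of at least 10 CPM in the higher line, the regions that rose most were at 1700001L19Rik, Arhgap22, Tceal7, Ablim1, Slc6a7, Adcyap1, Sstr3, Arpp19, Vill and Atp9a, with log2 fold changes from 1.83 to 2.11. Arhgap22, a Rac GTPase-activating protein gene (chr14:34027131-34028153), had 36.3, 30.3 and 22.3 CPM against 6.92, 9.13 and 4.68 CPM (2.09 ± 0.23 (SE), adjusted p = 1.26e-12), whereas the region at another of its start sites was not called (-0.25). Arpp19, a regulator of a protein phosphatase (chr9:74899602-74904138), had 84.3, 99.5 and 106 CPM against 28.2, 25.6 and 26.1 CPM (1.84 ± 0.12 (SE), adjusted p = 2.96e-23). It was also higher in single ChIP-Seq (0.23, adjusted p = 0.00336). The regions that fell most were at Tmem176b, S100a16, Gpt, Gm10837, Serpinh1, Ifitm3, Cmtm5, Def6, Dmpk and Acot11, with log2 fold changes from -3.62 to -3.29. Serpinh1, the chaperone of collagen (chr7:106499653-106501959), had 10.1, 6.29 and 6.04 CPM against 71.3, 96.8 and 70.9 CPM (-3.39 ± 0.17 (SE), adjusted p = 3.71e-30). Cmtm5, a gene of oligodendrocytes, had 3.7, 3.7 and 2.27 CPM against 32.5, 35.9 and 31.4 CPM (-3.34 ± 0.24 (SE), adjusted p = 2.53e-21), and Gpt, an alanine aminotransferase, had 3.02, 2.96 and 1.13 CPM against 30.4, 26.2 and 27.4 CPM (-3.52 ± 0.27 (SE), adjusted p = 9.72e-20). All of these genes were chosen for size, so their separation of the lines is part of the choice.

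At start sites of noncoding transcripts alone, 65 of 419 regions (15.5%) were higher and 66 (15.8%) were lower, against 17.0% and 14.6% of all regions. Under the limit of 10 CPM in the higher line, the largest rise lay at Mir1983 (chr13:21988870-21989847), with 19.1, 23.7 and 20.4 CPM against 7.46, 7.3 and 6.02 CPM (1.58 ± 0.24 (SE), adjusted p = 2.51e-08), followed by A830036E02Rik (1.53) and a noncoding transcript of Usp35 (1.49). The largest falls under this limit lay at D230004N17Rik (2.35, 2.22 and 2.64 CPM against 21.3, 26.2 and 20.1 CPM, -3.20 ± 0.28 (SE), adjusted p = 1.01e-16), at Nkx2-2as, the antisense transcript beside the oligodendrocyte factor gene Nkx2-2 (-2.76), and at Gm16046 (-2.57). The reads carry no strand, so Nkx2-2as cannot be told apart from Nkx2-2 where they overlap.

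Regions without a start site within 1000 bp also moved. In gene bodies 235 of 1381 regions (17.0%) were higher and 211 (15.3%) lower, and between genes 320 of 2371 (13.5%) were higher and 200 (8.44%) lower. Among regions whose lines did not overlap and that had a mean of at least 10 CPM in the higher line, the largest rises were at chr5:127174620-127175504, between genes, with 18.8, 14.8 and 19.2 CPM against 2.66, 3.65 and 3.35 CPM (2.45 ± 0.30 (SE), adjusted p = 6.75e-11), at chr1:55947156-55947722, between genes, and at chr12:41520750-41521973, inside Dock4, with log2 fold changes of 2.26 and 2.14. The first of these lay 180269 bp from the nearest annotated TSS, and no Rosa library reached the lowest Camk2a library. The largest falls under the same conditions were at chr4:62282007-62283177 inside Rgs3, at chrX:166444784-166445145 between genes and at chr6:3955528-3957073 inside Gng11, with log2 fold changes of -3.98, -3.87 and -3.08. The regions in Rgs3 and Gng11 lay 1239 and 1585 bp from a TSS.

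The shape of a region went with its direction. When the 12983 regions at coding start sites were divided into 5 bins of equal size by width, 8.2% of the narrowest bin (median width 1130 bp) were higher and 22.0% were lower, whereas 43.3% of the widest (median 3790 bp) were higher and 14.6% were lower. The medians of the log2 fold change ran from -0.13 in the narrowest bin to 0.15 in the widest. By the ratio of observed to expected CpG, 36.8% of the bin with the fewest CpGs (median ratio 0.383) were higher and 21.7% were lower, against 6.62% and 14.8% of the bin with the most (median 0.798). Regions poor in CpG thus held more calls in both directions, and their log2 fold changes spread further, from -1.64 at the 10th to 1.19 at the 90th percentile, against -0.47 and 0.22. Level moved with width, since the median Rosa level was 21.5 CPM in the narrowest and 112 CPM in the widest bin, and its part in these shares was not tested. Widths came from peaks called in the study's own libraries, so they are not independent of the levels compared. The part of this in the shares was not tested either. Regions shared by a divergent pair of coding genes were called less widely, 11.3% higher and 10.3% lower of 1176, against 19.0% and 15.7% of the 11726 with 1 coding gene.

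**Figure D5:**
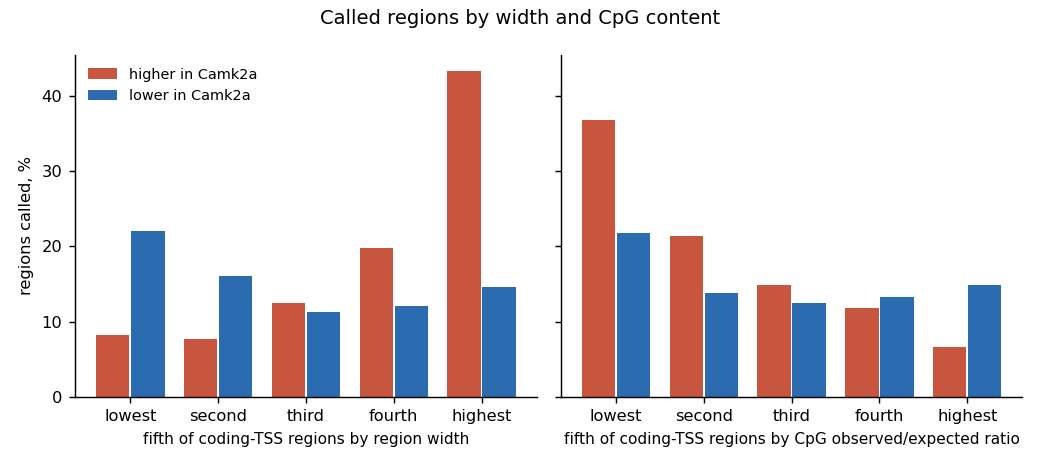
Percentage of coding-TSS regions called higher (orange) and lower (blue) in Camk2a tChIP-Seq, in 5 equal bins by region width (left) and by CpG observed/expected ratio (right). Higher calls climb from 8.2% to 43.3% with width and drop from 36.8% to 6.62% with CpG ratio.

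By autosome the share of higher regions ran from 13.3% on chromosome 11 to 20.1% on chromosome 1, and chromosome X had 14.6% higher and 6.11% lower of 589 regions. The Y-linked genes Ddx3y, Eif2s3y and Uty had levels in both lines and were not called, with 24.5, 24 and 29.1 CPM at Ddx3y in the Camk2a libraries and 27.7, 32.9 and 27.4 CPM in the Rosa libraries. Y chromosome signal was therefore present in every library of both lines. The 2 regions on the mitochondrial genome, which has no histones, fell from a median of 227 CPM in the Rosa to 74.9 CPM in the Camk2a line, whereas both were higher in the Camk2a line in single ChIP-Seq, with a median log2 fold change of 1.08.

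Around Camk2a itself a group of neighbours needs single ChIP-Seq beside it, because the Camk2a line carries Camk2a regulatory sequence in its Cre transgene. Within 500 kb of the gene 17 regions were compared. At Camk2a (chr18:61084429-61090503) tChIP-Seq gave 331, 355 and 357 CPM against 75.6, 71.2 and 67.6 CPM (2.27 ± 0.069 (SE), adjusted p = 9.42e-44), and single ChIP-Seq gave a log2 fold change of 0.52 (adjusted p = 3.74e-27). Slc6a7, the proline transporter of glutamatergic neurons (chr18:61171065-61174358), had 138, 127 and 135 CPM against 36.2, 35.3 and 34.1 CPM (1.92 ± 0.10 (SE), adjusted p = 1.16e-28) and 0.70 in single ChIP-Seq (adjusted p = 2.79e-16). At Arsi, an arylsulfatase gene (chr18:61070973-61072453), the log2 fold change was larger in single ChIP-Seq (1.94, adjusted p = 1.7e-26) than in tChIP-Seq (1.496, adjusted p = 2.14e-12), and that difference was not tested. A different number of copies of this segment in the 2 lines was not tested. The 2 regions at Synpo, an actin-associated protein of spines, rose in tChIP-Seq (1.18 and 0.76) and were not called in single ChIP-Seq, and Pdgfrb, on the other side of Slc6a7, fell as given above. A region 62 bp from a TSS of the microglial receptor gene Csf1r (chr18:61265595-61266896) had 1.68, 1.85 and 1.51 CPM against 4.26, 5.48 and 6.02 CPM (-1.59 ± 0.46 (SE), adjusted p = 0.00302). It stood apart from the Rosa libraries at this low level, but the call was lost without Camk2a replicate 3, Rosa replicate 2 or Rosa replicate 3, with adjusted p of 0.0105, 0.0132 and 0.0168 in edgeR. 2010002N04Rik also fell (-0.71), and the other 9 regions of the interval were not called.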

How the data were processed

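H3K4me3 tChIP-Seq was analysed in 3 Camk2a H2B-FLAG and 3 Rosa H2B-FLAG libraries, with the 6 single ChIP-Seq libraries of these lines set beside them. The authors deposited raw counts of reads in each of 17993 regions per library. Per the study's methods, reads were trimmed, repeat reads were discarded, the rest were aligned to mm9, duplicates were removed, and peaks were called. The submitters' processing notes name Bowtie 1.0.0, Bowtie2 2.1.0, SAMtools 0.1.19, bcl2fastq 1.8.4 and bedtools 2.17.0. How peaks were merged into 1 region list was not given in the sources used here. Removing duplicates caps the count of short regions, and removing repeat reads leaves repeated sequence uncounted.

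Counts were tested with the quasi-likelihood test of edgeR 4.0.16 in R 4.3.3, with TMM scaling, no covariate and no filter on low counts. Benjamini-Hochberg adjustment ran over all regions, and an adjusted p under 0.01 made a call. The script was tested on simulated data. Libraries held from 1457261 to 3049130 reads in regions, so low regions are measured least precisely in the Rosa line. The tested replicates are separate lysates, and the p-values measure only the spread between these samples. Regions were assigned to genes by overlap with a TSS of GENCODE M1 on mm9, taking the region with the highest summed count where a gene had several. Of the 13285 protein-coding genes with a region, 2365 shared it with another, and their values cannot be told apart. Promoter sequence was read from the mm9 genome.

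The 49 gene lists and the comparison itself were chosen with earlier results of these data known, so lists were described by counts and medians with no test. Genes were named by rule as the 10 coding start sites with the largest change in each direction outside loci the study names, up to 3 called members per list, 3 noncoding and 3 start-free regions in each direction, and every region within 500 kb of Camk2a. The coding start sites, noncoding and start-free regions, but not the list members, had to have lines without overlap and a mean of at least 10 CPM in the higher line. Other genes in the text are list members that were picked after their values were seen. Alternatives were DESeq2 1.42.0, other scalings, filters and thresholds, a replicate block, 1 fit over all 12 libraries, leaving out each library, and assigning genes by regions within 1000 bp of a TSS or by the widest region. Some items that the rule names are not reported here.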

Additional observations from a re-analysis of the deposited data

How the results depend on the processing

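In tChIP-Seq, the counts of higher and lower regions stayed within 1.5 times 3062 and 2620 under each alternative run. Leaving out each library gave 2605 to 2844 higher and 2229 to 2497 lower regions, and the Wald test of DESeq2 gave 2262 and 1915. Library totals alone gave 2570 and 3315, so that 43.7% of the calls were higher against 53.9% with TMM. In single ChIP-Seq, DESeq2 gave 27 higher and 7 lower regions against 167 and 219, library totals gave 57 lower regions, and leaving out each library gave 69 to 131 higher and 49 to 165 lower regions. The cause was not tested, and the overlap of calls between tChIP-Seq and single ChIP-Seq is bound to these unsteady counts. With the replicate block, tChIP-Seq gave 2948 higher and 2520 lower regions and single ChIP-Seq 169 and 264. Deviations of Camk2a and Rosa tChIP-Seq libraries correlated between -0.0368 and 0.0325, so no pairing by replicate number was seen. A batch shared by libraries of the same number was not tested. The 170 named regions had 2676 values under the alternatives. Of these, 2613 stayed on their side of the threshold, 59 lost the call, 4 gained it and 0 changed sign in a call. Some regions that were not called changed sign, such as Eif2s3y, which ran from -0.28 to 0.14. The median changed sign under some alternative in 10 of 49 lists, furthest for clustered protocadherins, from 0.94 to -0.39 with regions within 1000 bp of a TSS. That assignment also gave 17 lower astrocyte genes (median -1.5), 5 lower microglial genes and a choroid and ependymal median of -0.28, and taking the widest region left 0 oligodendrocyte genes higher.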

Other observations

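Promoter letters differed between some lists, as a description of the sequence alone. TATAAA was found in 19.0% of the promoters of antigen presentation and interferon genes and in 17.9% of those of neuropeptide genes, against 5.94% of all promoters. GGGCGG was found in 42.9% and 35.7% of these promoters, against 67.2% of all. TGACGTCA was found in 5 of 30 promoters of immediate early genes (16.7%), against 3.52% of all.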
